A study of Mus musculus with 12 samples.

Results

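The 37 genes described here are genes of the pancreas whose transcripts were measured in mouse spleens. They were chosen by symbol and comprised 22 digestive enzymes and their cofactor colipase, 7 proteins of the secretory granules, 3 Reg genes, 3 transcription factors of acinar cells and the 2 insulin genes. All 37 were found among the 18221 genes of the tables. The choice was made with the levels of pancreatic genes in these same mice known, so that levels and group differences of these genes are given as descriptions. The samples were 12 spleens of male ICR mice, an outbred stock, 3 in each of 4 groups, and each library was taken as 1 mouse, which the labels do not state outright. Dosing began at 3 weeks of age and spleens were collected at 8 weeks. Con-sa mice received saline only (agent "Blank" in the labels). B-sa mice received 1 injection of busulfan, an alkylating chemotherapy agent that damages blood-forming cells, at 40 mg/kg, and then saline. B+Con-FMT and B+A10-FMT mice received the same busulfan dose followed by fecal microbiota transplantation (FMT) by mouth once daily for 2 weeks. The transferred microbiota was pooled small-intestinal content of donor mice, untreated with alginate oligosaccharide for B+Con-FMT and dosed with it at 10 mg/kg for B+A10-FMT. Content was pooled within a donor group, and the number of pools behind the sequenced mice is not given in the sources used here.

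Acinar cells make up most of the pancreas and are specialised for secretion. They store digestive enzymes, largely as inactive precursors (zymogens), in granules that are released into the duct. Transcription of these genes depends on the PTF1 complex, which contains PTF1A and RBPJL and binds paired sequence boxes, an E-box (CANNTG) and a TTTCCC-type box. Islets are the endocrine part of the gland and secrete insulin, glucagon and other hormones. In the mouse the tail of the pancreas lies beside the spleen, and neither acinar nor islet cells belong to the spleen itself.

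The promoters of the 3 members that held a paired E-box and TTTCCC box in the RefSeq promoter window (GRCm38.p6, 250 bases before to 50 bases after the start) are shown because this pair is the known sequence feature of acinar promoters. They belong to Prss1, a trypsin (chr6:41458680-41458979, plus strand), Ctrb1, a chymotrypsin (chr8:111690961-111691260, minus strand), and Cela1, an elastase (chr15:100687871-100688170, minus strand). Capitals mark the 16 bases of the match, CANNTG and TTTCCC with 4 letters between them, which in Prss1 was read on the opposite strand.
Prss1: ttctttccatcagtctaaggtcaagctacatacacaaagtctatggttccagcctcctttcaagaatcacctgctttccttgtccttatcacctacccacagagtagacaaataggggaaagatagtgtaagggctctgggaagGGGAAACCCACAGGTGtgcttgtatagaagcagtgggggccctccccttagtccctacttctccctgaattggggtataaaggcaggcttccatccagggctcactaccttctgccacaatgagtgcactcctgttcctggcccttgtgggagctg
Ctrb1: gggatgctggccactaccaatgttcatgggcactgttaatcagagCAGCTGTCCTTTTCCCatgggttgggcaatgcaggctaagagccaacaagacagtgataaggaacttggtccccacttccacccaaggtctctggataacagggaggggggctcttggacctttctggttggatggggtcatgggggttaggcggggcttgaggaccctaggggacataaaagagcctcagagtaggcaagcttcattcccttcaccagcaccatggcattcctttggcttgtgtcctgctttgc
Cela1: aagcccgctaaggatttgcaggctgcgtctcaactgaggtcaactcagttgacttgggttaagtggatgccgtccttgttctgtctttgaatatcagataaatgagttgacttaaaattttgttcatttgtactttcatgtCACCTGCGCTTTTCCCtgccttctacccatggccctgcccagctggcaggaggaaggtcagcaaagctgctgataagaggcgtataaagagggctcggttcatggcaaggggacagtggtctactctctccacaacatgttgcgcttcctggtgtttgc
The match began 106 bases before the start in Prss1, 205 in Ctrb1 and 109 in Cela1.

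Promoter windows were matched for 28 of the 37 members. With 0 to 12 letters allowed between the boxes, on both strands, the pair was found in 3 of 28 windows (10.7%) and in 1.54% of all 32851 mouse promoter windows. The gap of 4 letters was chosen after the gaps had been seen, and with it the share over all windows was 0.0944%. TATAAA, the core of the TATA box, was in 12 member windows (42.9%) against 13.6% of all windows, and CACCTG, an E-box, in 15 (53.6%) against 20.2%. TTTCCC alone was in 10 (35.7%) against 25.2%. CACCTG is 1 form of CANNTG, so these searches overlap. A match describes the letters of the window and is not a bound site.

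Total RPKM (reads scaled to transcript length and to the number of mapped reads, a level per length) was 677033 to 772157 per mouse. The steps between low RPKM values corresponded, as a rough estimate, to 12400000 to 13100000 reads per mouse. Only estimates inside a range set in advance were kept, so these figures do not show that the mice were sequenced equally deeply. Globin genes held 23.3% to 32.4% of the RPKM. The tissue label was met by the markers of spleen, since B cell, T cell, red pulp macrophage and splenic stroma genes were present in all 12 mice. Among them, Tlx1, the factor required to form a spleen, was between 12.6 and 21.6 RPKM and Cd79a, a chain of the B cell receptor, between 529 and 745 RPKM. The 12 spleen markers other than globin summed to 1340 to 1760 RPKM. For the levels that follow, fewer cells of a type and less RNA per cell cannot be told apart, because the tissue was measured in bulk.

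The summed RPKM of the 35 acinar members varied 28.9-fold between mice. It was 4299.7, 9756.4 and 1810.4 in Con-sa mice 1 to 3 and 4699.6, 1379.0 and 658.9 in B-sa mice 1 to 3. In B+Con-FMT mice 1 to 3 it was 18379.2, 17234.0 and 11420.9, and in B+A10-FMT mice 1 to 3 it was 635.6, 1132.8 and 13568.8. All 3 B+Con-FMT mice lay above every Con-sa and B-sa mouse, while the B+A10-FMT group held both the lowest mouse of the study and 1 of the 4 highest. As a share of all RPKM, acinar genes were 0.0906% in the lowest mouse (B+A10-FMT 1) and 2.5% in the highest (B+Con-FMT 1).

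Group means were 5288.8 ± 4064.3 RPKM in Con-sa (SD, n = 3, here and below), 2245.8 ± 2155.3 in the B-sa mice, 15678.0 ± 3730.9 in the B+Con-FMT mice and 5112.4 ± 7327.7 in the B+A10-FMT mice. The SD was close to the mean in B-sa and above it in the B+A10-FMT mice. Single mice decided several of these means. Without B+A10-FMT 3 the mean of that group was 884.2, without B-sa 1 the mean of B-sa was 1018.9, and without Con-sa 2 the mean of Con-sa was 3055.1. The mean of B+Con-FMT stayed between 14327.5 and 17806.6 whichever mouse was left out. In the order of the 12 mice, neighbours differed by 1.04-fold to 2.37-fold, with the widest step between Con-sa 3 and Con-sa 1, and no step in that order separated all mice of 1 group from the rest.

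**Figure D1:**
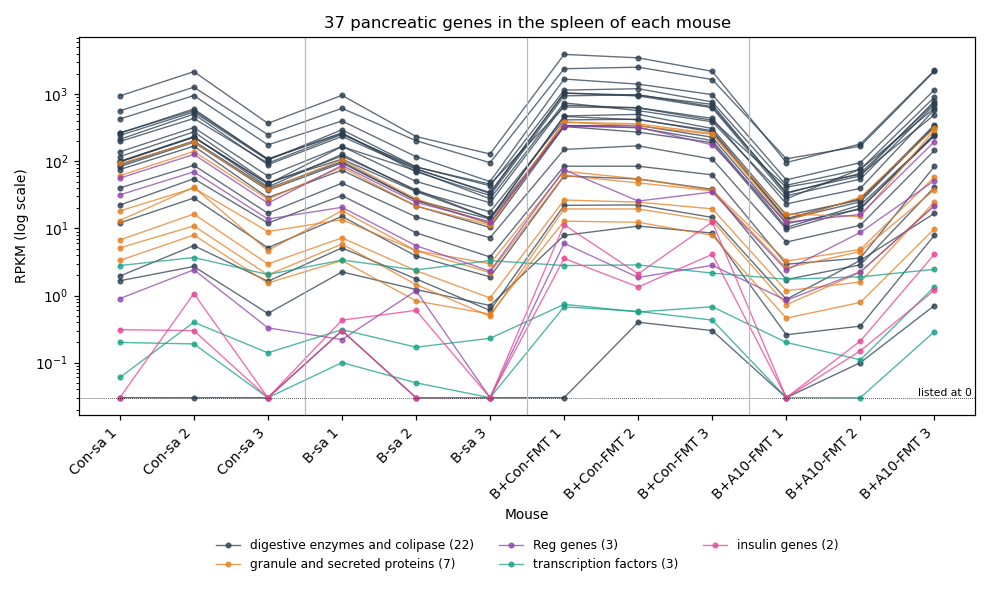
RPKM (log scale) of each of the 37 genes in each of the 12 mice, 1 line per gene, coloured by role, with genes listed at 0 drawn on the dotted line. Most lines run in parallel from 635.6 summed RPKM in B+A10-FMT 1 to 18379.2 in B+Con-FMT 1, while the transcription factors stay low and Bhlha15 stays nearly flat.

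The 6 digestive enzymes of highest mean RPKM were Amy2a5, Ctrb1, Cela2a, Try4, Clps and Pnlip, and together they made up 56.2% to 63.2% of the acinar sum of a mouse. The mean is pooled over mice of very different acinar sums, and the lower places depend on it. Prss2 took a larger mean share of the acinar sum than Pnlip among the B+Con-FMT mice (5.84% and 5.55%) and the B+A10-FMT mice (5.52% and 4.93%). Its share was smaller than that of Pnlip in the other groups. Among the B-sa mice Cela1 (6.1%) exceeded both Pnlip (5.4%) and Clps (5.15%). In the B+Con-FMT mice Clps (5.53%) was also below Prss2. Among the B+A10-FMT mice Cela1 (5.26%) and Try5 (5.22%) were also above Pnlip. Levels of the 6 enzymes are given for mice 1, 2 and 3 of each group. Amy2a5 (chr3:113249178-113258699), the pancreatic amylase that digests starch, was at 946, 2175 and 369 RPKM in the Con-sa mice, 965, 235 and 129 in the B-sa mice, 3937, 3497 and 2200.2 in the B+Con-FMT mice and 96.2, 181 and 2265 in the B+A10-FMT mice. The B+Con-FMT mice and B+A10-FMT 3 were thus the highest 4 for amylase, with Con-sa 2 just under them. Ctrb1 (chr8:111686510-111691010), chymotrypsinogen B, was at 567, 1275 and 251 RPKM in the Con-sa mice, 619, 203 and 95.6 in the B-sa mice, 2404, 2538 and 1661 in the B+Con-FMT mice and 109, 168 and 2212 in the B+A10-FMT mice. Cela2a (chr4:141814954-141826005), a pancreatic elastase, was at 428, 958 and 176 RPKM in the Con-sa mice, 400.5, 118 and 50.1 in the B-sa mice, 1689, 1418 and 989 in the B+Con-FMT mice and 53.0, 95.7 and 1164 in the B+A10-FMT mice. Both proteases had the same 4 mice at the top as amylase, and B-sa 3 in place of B+A10-FMT 1 was the lowest.

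The genes of lipid digestion also had these 4 mice at the top. Pnlip (chr19:58670365-58681799), pancreatic triglyceride lipase, was at 263, 605 and 107 RPKM in the Con-sa mice, 259, 77.8 and 33.2 in the B-sa mice, 1038, 946 and 630.4 in the B+Con-FMT mice and 30.7, 54.3 and 702 in the B+A10-FMT mice. Its cofactor colipase, Clps (chr17:28558210-28560766), was at 267, 573 and 109 RPKM in the Con-sa mice, 267, 70.1 and 30.9 in the B-sa mice, 948, 984 and 654 in the B+Con-FMT mice and 34.4, 60.8 and 793 in the B+A10-FMT mice. Lipase and colipase were therefore at nearly equal levels per length in every spleen, although the highest mouse was 33.8-fold above the lowest for Pnlip and 31.8-fold for Clps. The lipase relatives Pnliprp1 and Pnliprp2, which lie beside Pnlip on chromosome 19, ranged from 9.66 to 331 and from 1.73 to 60.7 RPKM. Cel, the lipase activated by bile salts, ranged from 11.8 to 344 RPKM and the phospholipase Pla2g1b from 2.93 to 84.7 RPKM.

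The trypsin genes lie in a cluster at chr6:41302272-41525079 and differed widely in level. Try4, the highest by the mean over the 12 mice, was at 245, 544 and 104 RPKM in the Con-sa mice, 296, 83.1 and 43.3 in the B-sa mice, 1154, 1212 and 771 in the B+Con-FMT mice and 44.1, 76.0 and 908 in the B+A10-FMT mice. In B+A10-FMT 2, Try5 (76.5 RPKM) was slightly above it. Prss2 had a mean of 393 RPKM over the 12 mice and Try5 one of 256 RPKM, whereas Prss3 and Try10 had means of 8.07 and 3.74 RPKM. Prss1 was listed at 0 in 7 mice and did not exceed 0.71 RPKM. The open reading frames of these 6 genes were 88.7% to 97.4% identical, with Try4 and Try5 the most alike, so reads may have been split between them and single trypsin levels are uncertain.

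Among the other proteases, Cela3b, Ctrl and Ctrc, which belong to the elastase and chymotrypsin families, ranged from 23.3 to 690 RPKM, 10.4 to 342 RPKM and 6.27 to 171 RPKM. RefSeq lists mouse Ctrc as a transcribed pseudogene. The carboxypeptidases Cpa1 and Cpb1, which trim peptides from the C-terminal end, ranged from 14.2 to 502 and from 13.6 to 425 RPKM, and the pancreatic ribonuclease Rnase1 from 14.0 to 468 RPKM. In the zymogen granule group, Zg16, a granule lectin, and Sycn, syncollin, reached 384 RPKM each. Gp2, the main granule membrane glycoprotein, and Tff2, a trefoil peptide, reached 61.7 and 71.4 RPKM. Dmbt1, a scavenger receptor protein, Spink1, the secreted trypsin inhibitor, and Cuzd1, a granule membrane protein, reached 26.6, 22.0 and 12.9 RPKM.

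The proportions between genes were steadier than their levels. For each of the 32 acinar members above 0 in every mouse, the log2 ratio of its RPKM to the summed RPKM of the other acinar members was taken, and its SD over the 12 mice was used as the measure. It was 0.15 or less in 18 of the 32, including 15 of the 21 enzymes, while the RPKM of those 18 genes ranged 26.6-fold to 35.5-fold. Cel was the most constant (SD 0.08), followed by Pnliprp1 (0.09) and Rnase1 (0.10). The SD exceeded 0.25 in 12 members, among them Cela1 (0.37), Try5 (0.49), Try10 (0.64), Prss3 (0.68) and Reg2 (0.70). These values describe how the same libraries share 1 pattern, and the cutoffs were set after the values were seen.

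**Figure D2:**
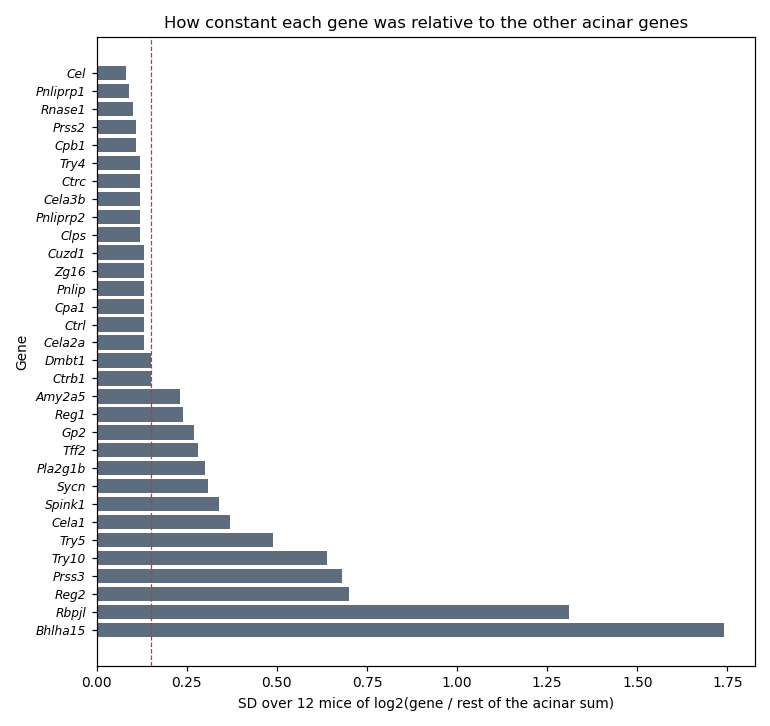
SD over the 12 mice of the log2 ratio of each gene to the rest of the acinar sum, 1 bar per gene, for the 32 acinar members above 0 in every mouse, with the dashed line at 0.15. The 18 genes at or left of the line kept a nearly fixed proportion, while the SD was largest for Rbpjl (1.31) and Bhlha15 (1.74).

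Over the 15 pairs of the 6 highest enzymes, the SD of the log2 ratio was 0.08 to 0.31 with a median of 0.19. The steadiest pair was Cela2a and Pnlip, with a ratio of 1.5 to 1.76 in all 12 mice. Clps and Pnlip kept a ratio of 0.902 to 1.13. The least steady pair was Amy2a5 and Ctrb1, with a ratio of 0.879 to 1.71. Amylase therefore varied most against chymotrypsin, and the groups were compared for this and other pairs.

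The ratio of Amy2a5 to Ctrb1 was 1.67, 1.71 and 1.47 in the Con-sa mice, 1.56, 1.15 and 1.35 in the B-sa mice, 1.64, 1.38 and 1.32 in the B+Con-FMT mice and 0.879, 1.08 and 1.02 in the B+A10-FMT mice. All 3 B+A10-FMT mice were below the other 9, B+A10-FMT 3 with its high acinar sum included. Pnlip to Clps was 0.885 to 0.893 in the B+A10-FMT mice and 0.961 to 1.11 in the other mice, again without overlap. Cpa1 to Cpb1 was 0.848, 0.981 and 0.8 in B-sa and at least 1.05 in the other 9 mice. Try5 to Try4 was 0.401, 0.424 and 0.439 in Con-sa and at least 0.472 in all busulfan-treated mice, with the reservation that these trypsins share sequence. The pairs were picked after the ratios were seen, so no test was made. Beside these pairs, Cela1 made up a larger share of the acinar sum where that sum was low, from 3.52% in B+Con-FMT 1 to 6.95% in B-sa 3.

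**Figure D3:**
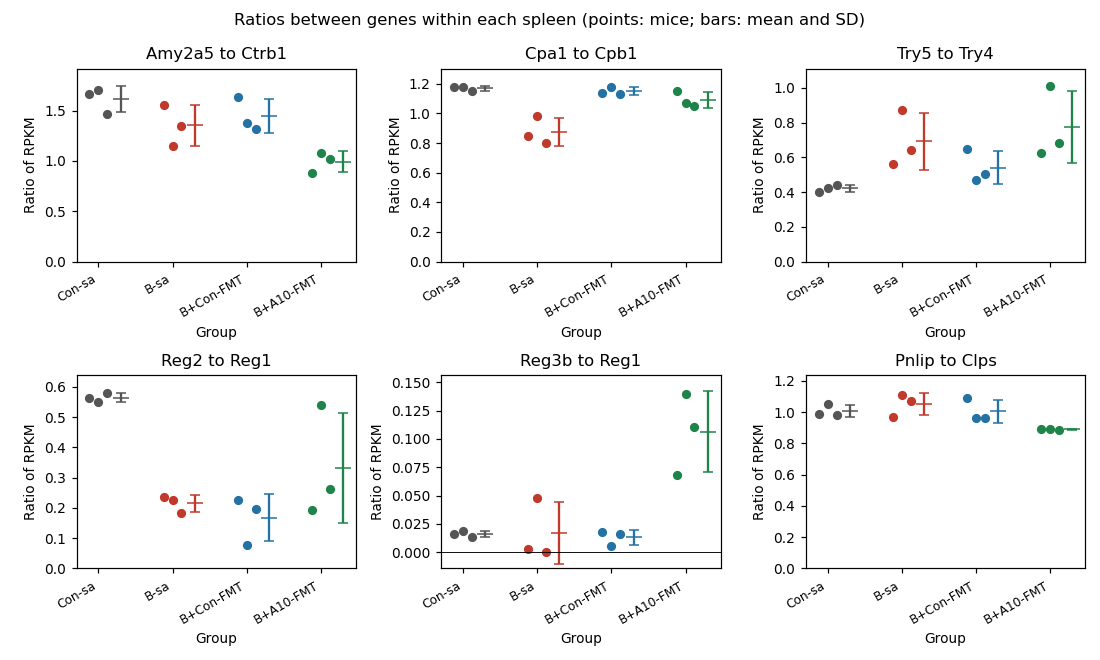
Ratios of RPKM within each mouse for 6 pairs of genes, 1 panel per pair, with a point per mouse, and the mean and SD of the 3 mice of each group beside them. Amy2a5 to Ctrb1 and Pnlip to Clps were lowest in the 3 B+A10-FMT mice, Cpa1 to Cpb1 in the 3 B-sa mice, and Reg2 to Reg1 was at least 0.551 in the 3 Con-sa mice.

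Reg genes encode secreted C-type lectins that are made by the exocrine pancreas and, in the case of Reg3b, also by injured or inflamed tissue. They lie together at chr6:78370885-78428668. Reg1 was at 56.3, 127 and 23.8 RPKM in the Con-sa mice, 87.2, 24.5 and 12.6 in the B-sa mice, 334, 325 and 176 in the B+Con-FMT mice and 12.4, 16.2 and 197 in the B+A10-FMT mice. Its order of mice was close to that of the enzymes. Reg2 was at 31.7, 69.9 and 13.8 RPKM in the Con-sa mice, 20.7, 5.54 and 2.31 in the B-sa mice, 75.1, 25.6 and 34.9 in the B+Con-FMT mice and 2.40, 8.72 and 51.7 in the B+A10-FMT mice. The ratio of Reg2 to Reg1 was 0.551 to 0.58 in the Con-sa mice, 0.184 to 0.237 in the B-sa mice, 0.079 to 0.225 in the B+Con-FMT mice and 0.194, 0.54 and 0.262 in the B+A10-FMT mice. Con-sa mice were thus the highest 3, although B+A10-FMT 2 came close, and the 2 open reading frames are 78.7% identical.

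Reg3b was far lower, at 0.90, 2.42 and 0.33 RPKM in the Con-sa mice, 0.22, 1.18 and 0 in the B-sa mice, 6.01, 1.86 and 2.82 in the B+Con-FMT mice and 0.85, 2.26 and 21.8 in the B+A10-FMT mice. Only B+A10-FMT 3 exceeded 10 RPKM. Relative to Reg1, Reg3b was 0.0685, 0.14 and 0.111 in the 3 B+A10-FMT mice and at most 0.0481 in the other 9. Its Pearson r with the rest of the acinar sum, on log2 values over the 12 mice, was 0.634, compared with 0.991 for Reg1 and 0.928 for Reg2.

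The transcription factors were near the lower end of the scale. Ptf1a, the defining factor of acinar identity, was at 0.20, 0.19 and 0 RPKM in the Con-sa mice, 0.10, 0.05 and 0 in the B-sa mice, 0.68, 0.58 and 0.43 in the B+Con-FMT mice and 0, 0 and 0.29 in the B+A10-FMT mice. Rbpjl, its partner in the PTF1 complex, was at 0.06, 0.40 and 0.14 RPKM in the Con-sa mice, 0.31, 0.17 and 0.23 in the B-sa mice, 0.74, 0.57 and 0.68 in the B+Con-FMT mice and 0.20, 0.11 and 1.35 in the B+A10-FMT mice. The 4 mice of highest acinar sum were also the highest 4 for Rbpjl, and all 4 of them had Ptf1a at 0.29 RPKM or more. At such levels a value rests on few reads, and neither gene passed the filter of 1 RPKM in 3 mice.

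Bhlha15 (MIST1), a factor of secretory cells that is made in acinar cells and in plasma cells, was the member with the lowest correlation with the others. It was at 2.80, 3.69 and 2.06 RPKM in the Con-sa mice, 3.38, 2.41 and 3.32 in the B-sa mice, 2.80, 2.86 and 2.16 in the B+Con-FMT mice and 1.75, 1.90 and 2.46 in the B+A10-FMT mice. These levels spanned 2.11-fold, and r with the rest of the acinar sum was 0.374, the only value below 0.5 among the 37 members. The 5 plasma cell markers summed to 573 to 875 RPKM in the Con-sa mice, 712 to 926 in the B-sa mice, 634 to 681 in the B+Con-FMT mice and 523 to 741 in the B+A10-FMT mice, none of them at 0 in any mouse. Their part in the level of Bhlha15 was not tested.

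Insulin, the hormone of islet beta cells, was measured at far lower levels than the enzymes. Ins1 (chr19:52264297-52265015) was at 0.31, 0.30 and 0 RPKM in the Con-sa mice, 0.30, 0 and 0 in the B-sa mice, 3.57, 1.34 and 4.12 in the B+Con-FMT mice and 0, 0.15 and 1.20 in the B+A10-FMT mice. Ins2 (chr7:142678656-142679726) was at 0, 1.07 and 0 RPKM in the Con-sa mice, 0.43, 0.60 and 0 in the B-sa mice, 11.4, 2.10 and 12.5 in the B+Con-FMT mice and 0, 0.21 and 4.13 in the B+A10-FMT mice. Both genes were highest in the 4 mice of highest acinar sum, namely all 3 B+Con-FMT mice and B+A10-FMT 3. In the 3 mice in which both genes were listed at 0, the acinar sum was 635.6 to 1810.4. The open reading frames of Ins1 and Ins2 are 90.7% identical, and reads may be shared.

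Insulin did not keep a fixed proportion to the acinar genes. The sum of Ins1 and Ins2 per 1000 RPKM of acinar sum was 0.0721, 0.14 and 0 in the Con-sa mice, 0.155, 0.435 and 0 in the B-sa mice, 0.813, 0.2 and 1.45 in the B+Con-FMT mice and 0, 0.318 and 0.393 in the B+A10-FMT mice. Within B+Con-FMT it thus ran from 0.2 to 1.45 at acinar sums of 11420.9 to 18379.2. B+Con-FMT 2, with an acinar sum of 17234.0, had 3.44 RPKM of insulin, and B+Con-FMT 3, with 11420.9, had 16.6. Pearson r with the log2 acinar sum was 0.792 for Ins1 and 0.776 for Ins2, compared with 0.998 for Prss2 and Try4.

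Islet genes that were not among the members were then examined. Of 19 such genes 15 were listed, and none reached 1 RPKM in any mouse, with a highest value of 0.67. Gcg, the glucagon gene, was at 0 in 5 mice and at most 0.42 RPKM (B+Con-FMT 3). Iapp, which encodes the amyloid peptide co-secreted with insulin, was at 0 in 7 mice and at most 0.61 RPKM (B+Con-FMT 1). Sst, somatostatin, was listed above 0 in 1 mouse only, B+A10-FMT 3, at 0.15 RPKM. The summed RPKM of the 3 hormone genes was 0.75, 0.31 and 0.90 in the B+Con-FMT mice, 0.34 in B+A10-FMT 3 and at most 0.19 in the other 8 mice. The islet factors Pdx1, Nkx6-1 and Nkx2-2 were at 0 in 11, 11 and 8 mice.

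On the log2(RPKM + 1) scale the hormone sum and the acinar sum had a Pearson r of 0.72 and a Spearman rho of 0.77 over the 12 mice. Without B+A10-FMT 1 and B-sa 3, the 2 mice farthest from the median acinar sum, r was 0.69 over 10 mice. With both sums centred on their group means, a value computed after seeing the data, r was 0.55. These values are a description with no test, since the acinar genes and the lists were chosen with the levels in these mice known, and 3 of the 4 mice with the highest hormone sums are 1 group. The hormone values come from a few reads, and 5 mice were at 0. Con-sa 2, with an acinar sum of 9756.4, had a hormone sum of 0, and B+Con-FMT 3, the lowest of its group in acinar sum, had the highest hormone sum. Other islet genes had other patterns. Chgb, a granule protein of endocrine cells, was at 0 in all 3 B+Con-FMT mice, and Slc2a2, a glucose transporter, and Mafa, a beta cell factor, were highest in Con-sa 3, at 0.22 and 0.43 RPKM.

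**Figure D4:**
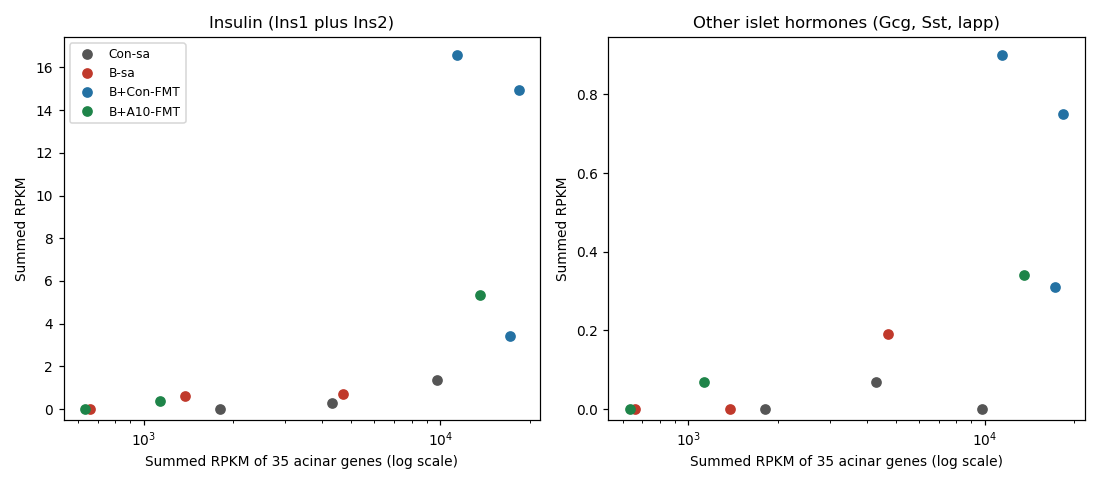
Summed RPKM of Ins1 and Ins2 (left) and of Gcg, Sst and Iapp (right) against the summed RPKM of the 35 acinar members (log scale), 1 point per mouse, coloured by group. The B+Con-FMT mice and B+A10-FMT 3 lie at the upper right, and insulin at similar acinar sums was 3.44 RPKM in B+Con-FMT 2 and 14.9 RPKM in B+Con-FMT 1.

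Group differences were fitted with limma on log2(RPKM + 1) for the 12671 genes that reached 1 RPKM in at least 3 mice, and a gene was called at a Benjamini-Hochberg adjusted p under 0.05. On this scale the change of genes near 0, such as insulin, is understated. This filter was passed by 34 members, all but Prss1, Ptf1a and Rbpjl. Ins1 reached 1 RPKM only in the 3 B+Con-FMT mice and B+A10-FMT 3, so that it passed through the mice in which it was high and had to differ, and its calls are given as a description with nothing read from them. Since the members vary together and were chosen on these mice, counts over them are not independent observations, and nothing is read from them about the treatments. The SE of a member's difference had a median of 1.19 on the log2 scale, compared with 0.08 over all genes. This SE is shared by the 6 comparisons, which come from 1 fit.

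In B-sa compared with Con-sa, the members had a median log2 difference of -1.18 (all genes -0.044). This median was -0.59 without Con-sa 2, -0.59 without B-sa 3 and -1.93 without B-sa 1. limma called 0 of 34 members, while 14.5% of all genes were called. An unadjusted p under 0.05 was found for 0 members and 31.3% of all genes. The groups overlapped in every member, where 11.2% of all genes were higher and 22.8% lower without overlap. Differences ran from -2.06 (SE 1.12) for Reg2 to 0.08 (SE 0.16) for Bhlha15, with Amy2a5 at -1.56 (SE 1.27).

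B+Con-FMT compared with B-sa gave the widest differences, with a median of 3.03 for the members (all genes -0.004), which was 3.78 without B-sa 1 and 2.43 without B-sa 3. The value was 3.33 (SE 1.27) for Amy2a5, 3.23 (SE 1.20) for Ctrb1 and 3.50 (SE 1.22) for Sycn. All 3 B+Con-FMT mice were above all 3 B-sa mice in 33 of the 34 members, with Bhlha15 as the exception, where 10.4% of all genes were higher without overlap. limma called 1 member, Ins1, higher by 1.80 (SE 0.33), where 0.623% of all genes were called higher. An unadjusted p under 0.05 was found for 30 of the 34 members and 18.4% of all genes. The call of Ins1 was lost when Con-sa 1 or 2, B-sa 2 or 3, B+Con-FMT 1 or 3, or B+A10-FMT 2 was left out, and without B+A10-FMT 3 the count was 2 (0.813% of all genes).

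B+Con-FMT compared with Con-sa gave a median of 1.82 (all genes -0.041), which was 2.40 without Con-sa 2 and 1.22 without Con-sa 3. The groups did not overlap in 27 of 34 members, all higher in the B+Con-FMT mice, where 10.6% of all genes were. The exceptions were Cela1, Cuzd1, Bhlha15, Reg3b, Reg2, Tff2 and Gp2. Reg2 differed by only 0.36 (SE 1.12), in contrast to 2.24 (SE 1.16) for its neighbour Reg1. limma called Ins1 higher by 1.67 (SE 0.33), where 2.3% of all genes were called higher, and 4 members and 27.4% of all genes had an unadjusted p under 0.05. The count of called members was 0 without B+Con-FMT 1 (3.1% of all genes), 2 without B+Con-FMT 2 (4.2%) and 4 without B+A10-FMT 3 (7.88%).

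Between the FMT groups, B+A10-FMT compared with B+Con-FMT had a median of -2.73 (all genes 0.046), with Amy2a5 at -3.19 (SE 1.27) and Reg3b, the one positive value, at 0.28 (SE 0.88). limma called Ins1 lower, at -1.48 (SE 0.33), where 2.78% of all genes were called lower, and only Ins1 did not overlap (11.2% of all genes were lower without overlap). There, 19 members and 28.9% of all genes had an unadjusted p under 0.05. The count changed most with B+A10-FMT 3. Without that mouse the median was -4.00 and 23 members were called, all lower, where 6.29% of all genes were called in either direction. The median was -1.84 without B+A10-FMT 1, and the call of Ins1 was lost without B+Con-FMT 1, B+A10-FMT 1 or B+A10-FMT 2 in turn.

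In the remaining comparisons most members differed by less than their SE. Wider differences beside their SE were those of Bhlha15 at -0.41 (SE 0.16) and Reg3b at 1.90 (SE 0.88) for B+A10-FMT against B-sa. Against Con-sa, Bhlha15 was at -0.33 (SE 0.16). B+A10-FMT compared with B-sa had a median of 0.47 (all genes 0.046) with 0 members and 5.27% of all genes called by limma, and 1 member and 24.5% of all genes at an unadjusted p under 0.05. Its direction rested on single mice, since the median was -0.14 without B-sa 3, -0.83 without B+A10-FMT 3, 0.86 without B+A10-FMT 2, 1.11 without B-sa 1 and 1.20 without B+A10-FMT 1. With all mice, 19.7% of all genes were higher and 7.38% lower without overlap. B+A10-FMT compared with Con-sa had a median of -0.79 (all genes 0.005) with 0 members and 0.41% of all genes called, and 0 members and 13.5% of all genes at an unadjusted p under 0.05. The median was -0.01 without B+A10-FMT 1, -0.21 without Con-sa 2, -0.31 without B+A10-FMT 2, -1.36 without Con-sa 3 and -2.08 without B+A10-FMT 3. With all mice, 11.7% of all genes were higher and 9.9% lower without overlap. The groups overlapped in every member in both comparisons. The comparisons share groups and are not independent of each other.

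**Figure D5:**
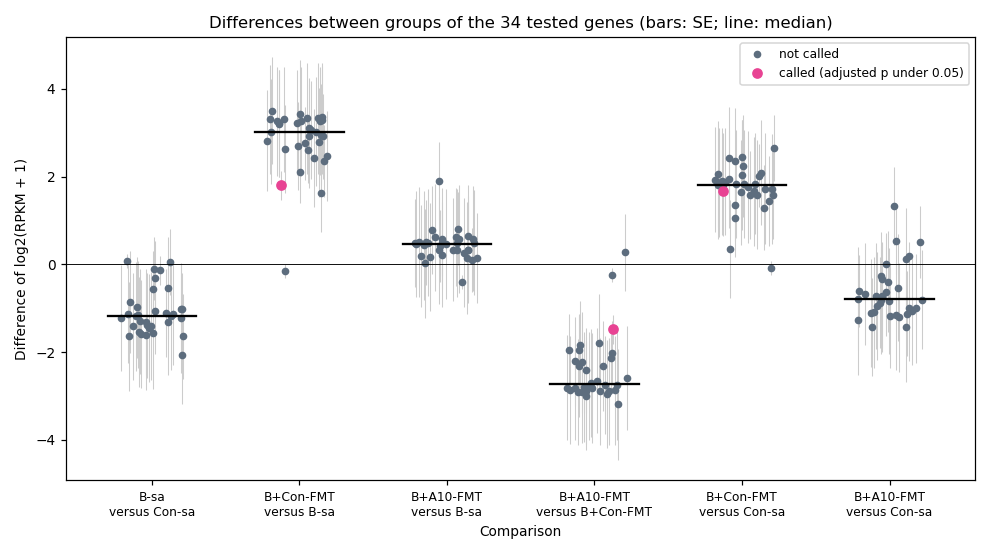
Difference of log2(RPKM + 1) between groups for the 34 tested members in the 6 comparisons, with the SE as thin bars and the median of the members as a thick line. The medians were 3.03 for B+Con-FMT versus B-sa and -2.73 for the contrast of B+A10-FMT with B+Con-FMT, and Ins1, which passed the filter through the mice in which it was high, was the single member called in these and in B+Con-FMT versus Con-sa.

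With the log2 acinar sum as a covariate, a fit chosen after seeing the data, a slope was fitted for each gene. Differences are between groups at equal acinar sum along that slope, and are not proportions. The sum is made of the acinar members themselves, without insulin, which takes up much of their spread. Counts of members are therefore not comparable with the shares of all genes beside them, and nothing is read from them. The SE was 0.05 to 0.28 in the members called. In B-sa versus Con-sa, 5 of 34 members were called (8.12% of all genes), namely Try5 at 0.77 (SE 0.19), Reg1 at 0.44 (SE 0.11) and Cpb1 at 0.23 (SE 0.05), and Cela2a at -0.23 (SE 0.06) and Gp2 at -0.55 (SE 0.08). In B+A10-FMT versus Con-sa, 4 were called (0.379% of all genes), with Amy2a5 at -0.40 (SE 0.07), Pnlip at -0.27 (SE 0.05), Spink1 at 0.54 (SE 0.08) and Prss3 at 1.16 (SE 0.18). B+Con-FMT versus Con-sa had 5 (7.83%), all higher, which were Prss3, Try4, Try10, Reg1 and Ins1. Of these, Ins1 passed the filter through the mice in which it was high, so its call is a description only. B+A10-FMT versus B-sa had 3 (5.32%), with Spink1 at 0.46 (SE 0.08) and Amy2a5 and Cpb1 lower at -0.26 (SE 0.06) and -0.23 (SE 0.05). The contrast of the FMT groups had 1 (2.37%), Spink1 at 0.48 (SE 0.10), and B+Con-FMT versus B-sa had 0 (0.3%). At an unadjusted p under 0.05, the comparisons against Con-sa had 13 members for B-sa (27.3% of all genes), 16 for B+A10-FMT (12.1%) and 15 for B+Con-FMT (26.0%). Against B-sa there were 12 for B+A10-FMT (24.3%) and 6 for B+Con-FMT (11.5%), and 4 when the FMT groups were compared (22.5%). Leaving out mice was not run for this fit. As a share of the acinar sum, Spink1 was 0.115%, 0.196% and 0.162% in B+A10-FMT mice 1 to 3, and the lowest of these lay below Con-sa 1 (0.119%) and B-sa 1 (0.124%).

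Genes outside the member list that were most like the acinar sum were sought among 12637 tested genes. Over the 12 mice, 16 had a Pearson r of 0.9 or more on the log2 scale. Among them, 2210010C04Rik (16.1 to 421 RPKM) had an r of 0.999. Others were Klk1, tissue kallikrein (0.992), Serpini2, a serpin of the pancreas (0.983), Reg3d, a Reg gene (0.974), and Pdia2, the protein disulfide isomerase of the pancreas (0.965). Lower values were those of Klk1b5 (0.961), Cckar, the cholecystokinin receptor of acinar cells (0.953), Itgb4 (0.95), Nupr1 (0.942), Erp27 (0.939) and Sostdc1 (0.937). Itgb4 ran from 0.90 to 1.55 RPKM and Sostdc1 from 0.49 to 2.10 RPKM.

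Of 18 further acinar genes 17 were listed, and they summed to 121 to 539 RPKM in the Con-sa mice, 53.5 to 234 in the B-sa mice, 529 to 827 in the B+Con-FMT mice and 46.3 to 706 in the B+A10-FMT mice. One of the 13 tested was called by limma, Erp27, at -1.29 (SE 0.33) when B+A10-FMT was compared with B+Con-FMT, where 2.78% of all genes were called lower. Amy2b did not keep its proportion: relative to Amy2a5 it was 0.0334 to 0.0402 in the Con-sa mice, 0.005 to 0.0305 in the B-sa mice, 0.00707 to 0.0106 in the B+Con-FMT mice and 0.00712 to 0.0332 in the B+A10-FMT mice. These amylase genes are copies within 1 family, and reads may be split between them.

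Markers of other tissues were compared beside the members. The 7 pancreatic duct genes, such as Krt19 and Cftr, summed to 4.15 to 9.86 RPKM in all mice, and were 5.17 to 5.99 in the B+Con-FMT mice and 6.93 to 9.86 in B-sa mice. Krt19 and Krt7 made up most of this sum, so that it mainly follows these genes. Cftr did not exceed 0.14 RPKM, whereas Muc1, an apical mucin, ran from 0.15 RPKM in B+A10-FMT 1 to 1.14 in B+A10-FMT 3. The 8 adipocyte genes summed to 185 to 390 RPKM in the Con-sa mice, 221 to 519 in the B-sa mice, 60.3 to 199 in the B+Con-FMT mice and 108 to 133 in the B+A10-FMT mice. The 6 liver genes summed to 28.2 to 223, 16.7 to 89.5, 19.4 to 55.1 and 13.1 to 19.7 RPKM in the same order of groups. In the 4 mice of highest acinar sum, adipocyte genes summed to 60.3 to 199 RPKM and liver genes to 13.5 to 55.1 RPKM.

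Kidney genes, led by Kap, summed to 76.7 to 119 RPKM in the Con-sa mice, 7.82 to 15.4 in the B-sa mice, 18.1 to 63.2 in the B+Con-FMT mice and 0.71 to 3.36 in the B+A10-FMT mice. B+A10-FMT 3, with its acinar sum of 13568.8, had 3.36 RPKM of kidney genes, so that kidney and acinar genes did not go together in this mouse. The 5 mesothelial genes of the organ capsule summed to 15.3 to 29.5 RPKM, and neither intestinal genes (6 listed, at most 1.66 RPKM summed) nor stomach genes (4 listed, at most 0.59) were abundant. Aqp2 of the kidney, Tff1 of the stomach, Fabp2 and Cdx1 of the intestine and Onecut1 of the duct were at 0 in most mice. The part of other tissues in the differences between groups was not tested.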

How the data were processed

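RNA-seq of 12 spleens was used. The authors deposited 1 table per mouse for 60654 RefSeq transcripts, whose values are taken as RPKM from the paper's methods, since the file headers name no unit. The paper names SOAPaligner, the submitters' processing notes name HISAT, Bowtie2 and mm10, and which of these made the values is not settled. The annotation release is not given in the sources used here, and read counts were not used here.

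RPKM were summed per gene over its transcripts. Groups came from the agent label. limma 3.58.1 in R 4.3.3 (trend and robust, all 12 mice in 1 fit, group as the factor, two-sided) was run on log2(RPKM + 1) for genes of at least 1 RPKM in at least 3 mice, with Benjamini-Hochberg adjustment over 12671 genes, and was tested on simulated data. Sums, ratios and correlations were computed in Python 3.11.15. Positions and promoters are from RefSeq GRCm38.p6, and open reading frames are the longest in GENCODE M21 transcripts.

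All members could be named, with every mouse for the 6 highest enzymes, insulin, Reg genes, transcription factors and members of r below 0.5, and also the 12 most similar other genes, of which 1 is not reported here. The members and all lists were chosen with earlier results of these data known. Precision rests on the spread between 3 mice, because RPKM give no counting interval, and p-values measure the spread between these samples only. Alternatives were another pseudocount, filter, scaling or transcript set, a fit of the compared groups only, a replicate block, each mouse left out, the acinar sum as covariate and group-centred sums.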

Additional observations from a re-analysis of the deposited data

How the results depend on the processing

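The counts of called members rest on Ins1, which passed the filter through the mice in which it was high, and changed easily. For B+Con-FMT against B-sa the count of 1 became 0 with a pseudocount of 0.1 (112 of 12671 genes called). It was also 0 with 1 RPKM required in every mouse (113 of 11709) and with curated transcripts only (25 of 11598). The acinar sum as covariate gave 0 as well (38 of 12671). For B+A10-FMT against B+Con-FMT the count became 0 with the pseudocount of 0.1 (1311 of 12671 genes called) and with 1 RPKM in every mouse (1353 of 11709). It was also 0 with only the 2 groups compared in the fit (1016 of 12671), and 2 with no filter (902 of 18218). For B+Con-FMT against Con-sa the count became 2 with no filter (875 of 18218 genes called) and 0 with 1 RPKM in every mouse (1130 of 11709). It became 3 with only the 2 groups compared (1021 of 12671) and 5 with the covariate (992 of 12671). The covariate, chosen after seeing the data, gave 5 for B-sa against Con-sa (1029 of 12671 genes called). It gave 3 for B+A10-FMT against B-sa (674) and 4 for B+A10-FMT against Con-sa (48). The count had been 0 in these comparisons. Requiring 1 RPKM in every mouse left 26 members, without Ins1, and the cause of the other changes was not tested. Leaving out each mouse in turn gave 0 to 2 for B+Con-FMT against B-sa, 0 to 23 for B+A10-FMT against B+Con-FMT, 0 to 4 for B+Con-FMT against Con-sa and 0 in the other comparisons. Mean acinar sums then ran from 3055.1 to 7028.0 among the Con-sa mice, 1018.9 to 3039.3 among the B-sa mice, 14327.5 to 17806.6 among the B+Con-FMT mice and 884.2 to 7350.8 among the B+A10-FMT mice. The median SD of enzyme ratios ran from 0.17 to 0.2 and the r of islet hormones from 0.66 to 0.82, and r was 0.55 with group-centred values, chosen after seeing the data. Scaling by the median of ratios or to equal totals outside globin genes and members changed no count of members.

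The replicate numbers did not pair the mice, since the correlation of deviations over 18 pairs of the same number in different groups was -0.37 to 0.30 with a median of -0.04. With the number as a block, the counts of members stayed at 0, 1, 0, 1, 1 and 0 in the 6 comparisons. Of all 12671 genes, 1462, 85, 417, 917, 773 and 41 were then called, in the same order.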
